A study of Mus musculus with 12 samples.

Results

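Mouse neural progenitor cells (mNPCs) carrying a stop cassette in 1 allele of Kmt2a were compared with wild-type mNPCs across all expressed genes. The comparison used 3 Kmt2a+/LSL and 3 Kmt2a+/+ libraries, chosen by the genotype in the labels, which are 6 of the 12 libraries of the series. In Kmt2a+/LSL cells a loxP-stop-loxP (LSL) cassette sits in intron 1 of one allele and ends transcription early, and the sample titles call these cells Kmt2a KO although the other allele is intact. The mice were on a C57BL/6J background and the allele came from a single founder line. All cells were taken from the hippocampus of newborn (P0) pups and were grown with FGF-2 and EGF, and messenger RNA was captured on poly-T beads. The 3 nes-cre+/-Kmt2a+/LSL libraries, whose cassette is removed by a nestin-driven Cre in neural cells, entered the fit only to estimate the spread, and the 3 nes-cre+/- libraries were not used. The labels do not say whether the 3 libraries of a genotype are separate pups, so p-values measure the spread between these cultures, which may be technical. A lower level in such bulk RNA can come from fewer cells of a type or from less RNA per cell, and these cannot be told apart.

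KMT2A is a histone methyltransferase that writes methylation on lysine 4 of histone H3, a mark of active promoters and enhancers, and its CXXC domain binds unmethylated CpG DNA. It acts in a complex with WDR5, RBBP5, ASH2L and DPY30, and menin tethers it to chromatin. It is best known for holding HOX and MEIS genes active in development, and in the hippocampus it takes part in neurogenesis from neural stem cells. Hippocampal progenitors arise from the dorsal telencephalon, are patterned by factors such as EMX2, LHX2 and the DMRT proteins, and divide in culture as long as FGF-2 and EGF are supplied.

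The targeted gene separated the genotypes. Kmt2a (chr9:44803355-44881296 on the minus strand, GRCm38) had normalized counts of 6913, 7047 and 6622 in Kmt2a+/+ replicates 1 to 3 and of 3889, 3921 and 3875 in Kmt2a+/LSL replicates 1 to 3. The Kmt2a+/LSL cultures were close to each other and all lay far below the wild-type cultures, at 56.8% of the wild-type mean (3895 ± 23.7 against 6861 ± 218, mean ± SD, n = 3 each). On the log2 scale the difference was -0.82 ± 0.15 (SE), and -0.80 ± 0.12 without Kmt2a+/+ replicate 1. These counts cover all transcripts of the gene. In Kmt2a+/LSL cells the paper reports a shift from the full-length transcript to a truncated isoform without the enzymatic SET domain. The level of full-length Kmt2a was not measured here. The two-sided exact permutation test over 3 against 3 libraries gave p = 0.1, the smallest it can give. The adjusted p was 1 in edgeR's quasi-likelihood test over all genes, against an unadjusted p of 4.34e-04, and 2.64e-09 in the DESeq2 Wald test.

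One wild-type library stood apart from the other 5. In Kmt2a+/+ replicate 1 the log2 deviation from the mean of the 6 libraries went from a median of 0.89 in the decile of genes with the lowest GC content to -1.66 in the decile with the highest. Over the same deciles the other 5 libraries stayed between -0.54 and 0.65. Wild-type replicate 1 also had the lowest total, 18280008 estimated counts against 22715382 to 28596919 in the others, and it listed 163 genes at 0 that averaged 50 or more normalized counts in the other libraries, where each other library had 11 to 24 such genes. Its expression also differed by function. Mki67, a marker of dividing cells, stood at 34219, 4827 and 11432 in Kmt2a+/+ and at 16590.4, 10309 and 10491 in Kmt2a+/LSL. Hes5, a Notch target of stem cells, stood at 51.3, 3744 and 2021 in Kmt2a+/+ and at 1185, 2285 and 2290.1 in Kmt2a+/LSL. Wild-type replicate 1 was highest for the first and far below all others for the second, and the part of this library in each result was measured by leaving it out. Results are therefore given for 4 fits, in this order: all libraries, without Kmt2a+/+ replicate 1, all libraries with an offset that removes each library's trend with GC content, and both together.

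**Figure D1:**
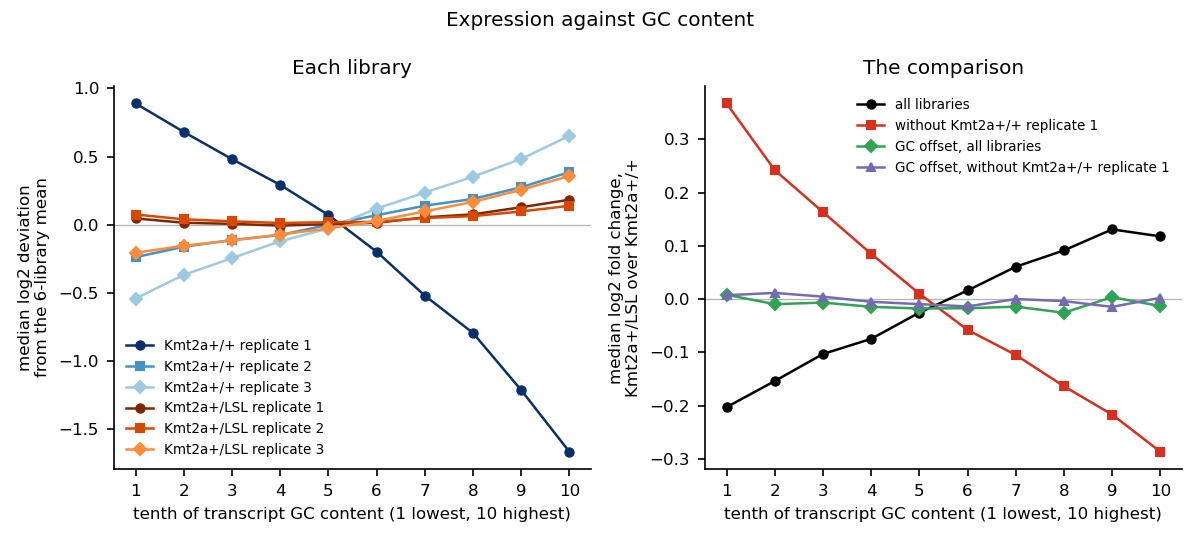
Left, median log2 deviation of each library from the mean of the 6 libraries, by decile of transcript GC content. Right, median log2 fold change of Kmt2a+/LSL over Kmt2a+/+ by the same deciles in the 4 fits. Kmt2a+/+ replicate 1 falls from 0.89 to -1.66, the fold change climbs from -0.20 to 0.12 with all libraries, goes from 0.37 to -0.29 without that library, and stays within 0.03 of 0 with the GC offset.

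Kmt2a and Grb10, an imprinted adaptor protein that restrains insulin and IGF receptors, were the genes with the smallest p-values below wild type, and Nek7, a mitotic kinase, the one with the smallest above it, yet no gene passed the threshold over the whole table. With all libraries, edgeR called 0 of 16655 genes (0%) at an adjusted p of 0.05. Without adjustment, 126 genes (0.757%) lower in Kmt2a+/LSL and 65 (0.39%) higher passed 0.05. Without Kmt2a+/+ replicate 1, 0 of 16516 genes (0%) were called at the adjusted threshold, and 362 (2.19%) were lower and 629 (3.81%) higher at the unadjusted one. With the GC offset the adjusted count was again 0 (0%), with 222 lower (1.33%) and 112 higher (0.672%) unadjusted. With the offset and without wild-type replicate 1 it was 0 (0%), with 243 lower (1.47%) and 337 higher (2.04%). The balance of directions thus turned with the library: 66.0% of the unadjusted calls were lower with all libraries and 36.5% without wild-type replicate 1, and 66.5% and 41.9% with the GC offset. The DESeq2 Wald test called 7 of 16615 genes (0.0421%) with all libraries and 13 of 15210 (0.0855%) without wild-type replicate 1, limma-voom with sample quality weights called 0 with all libraries and had 1023 genes with an unadjusted p under 0.05, and DESeq2 z-scores with an empirical null called 47, and 4 without wild-type replicate 1.

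As a description that needs no model, the genes whose 3 Kmt2a+/LSL values all lay on one side of the 3 Kmt2a+/+ values were counted. There were 314 such genes lower (1.89%) and 359 higher (2.16%). With each library's GC trend removed there were 558 lower (3.35%) and 586 higher (3.52%). With 2 wild-type libraries against 3, non-overlap is far more common, at 14.8% lower and 14.3% higher as normalized and 10.8% and 10.6% with the GC trend removed. Among 11598 genes with a mean of 50 or more, the fold change kept its sign without wild-type replicate 1 in 42.1%, and in 60.7% with the GC offset. A total of 97 genes had an unadjusted p under 0.05 both with and without wild-type replicate 1, and 79 had one in all 4 fits, 52 of them lower and 27 higher.

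**Figure D2:**
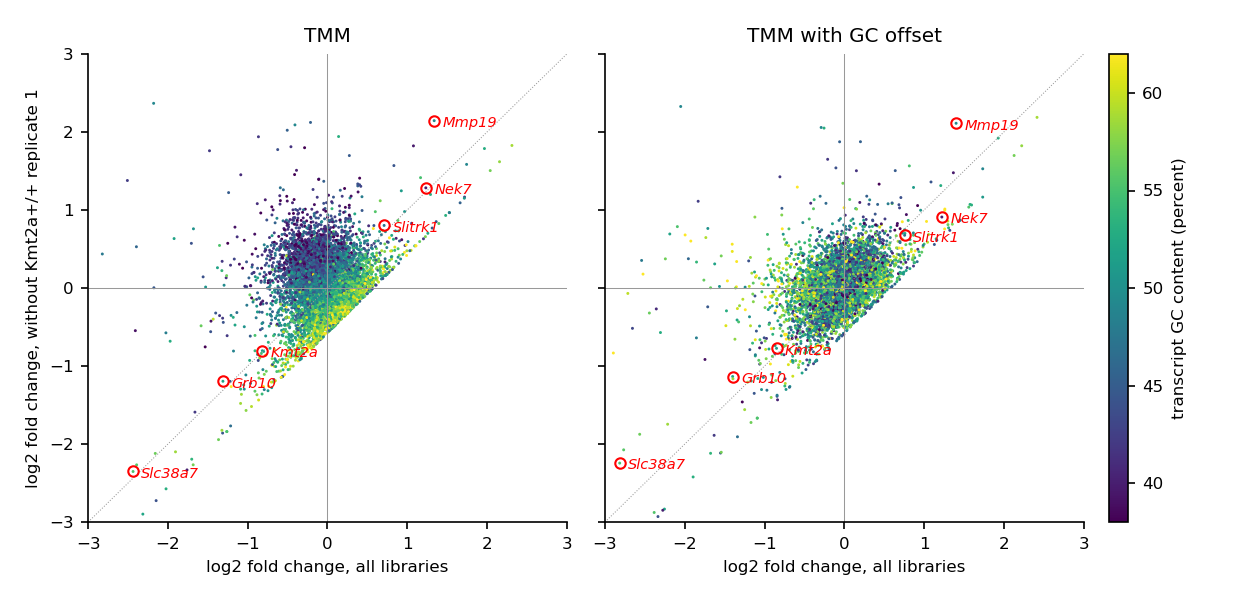
Log2 fold change of Kmt2a+/LSL over Kmt2a+/+ with all libraries (x axis) and without Kmt2a+/+ replicate 1 (y axis), 1 point per gene and coloured by GC content, for 11598 genes. The straight lower edge is the most that removing 1 of 3 wild-type libraries can take away. Colours are layered by GC content on the left and mixed with the GC offset on the right, and 24 and 21 genes lie outside the axes.

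The genes described next met 4 conditions: an unadjusted p under 0.05 with all libraries and without wild-type replicate 1, 3 against 3 values that did not overlap, a mean of at least 50 normalized counts, and a rank among the 12 largest differences in their direction. Of the genes that met the first 3, 13 were below wild type and 12 above it. Since none passed the adjusted threshold in edgeR, they are given as a description of these cultures and not as called genes.

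Among the lower genes, Grb10 (chr11:11930508-12038683) stood at 5053, 4258 and 3936 in Kmt2a+/+ and at 1843, 2019 and 1477 in Kmt2a+/LSL, with log2 fold changes of -1.31 ± 0.19 (SE) and, without wild-type replicate 1, -1.20 ± 0.16. Dmrt3 (chr19:25610301-25623921), a transcription factor of dorsal telencephalic progenitors, stood at 279, 347 and 297 in Kmt2a+/+ and at 169, 124 and 107 in Kmt2a+/LSL, with log2 fold changes of -1.21 ± 0.26 and -1.26 ± 0.24. Both genes had groups far apart, and both were among the DESeq2 calls in each set of libraries. Dmrt3 has a GC content of 68.0%, and its log2 fold change was -2.90 with the GC offset and -0.83 with the offset and without wild-type replicate 1, so its size, though not its direction, rests on how that library is treated. Bcor, the 13th and a BCL6 corepressor that works in a variant Polycomb complex, stood at 823, 689.5 and 819 against 585, 553 and 569, a log2 fold change of -0.45 ± 0.18.

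Slc38a7 (chr8:95835920-95853539), a glutamine transporter, stood at 245, 269 and 148 in Kmt2a+/+ and at 14.9, 21.1 and 86.2 in Kmt2a+/LSL (log2 fold change -2.44 ± 0.79). Mt3, the brain metallothionein that binds zinc and copper, stood at 7269, 6989 and 9349 against 3805, 4635 and 4655, a log2 fold change of -0.85 ± 0.30. That of Mt3 was -1.37 with the GC offset and -0.66 with the offset and without wild-type replicate 1. Ndufa6, an accessory subunit of respiratory complex I, stood at 2051, 1177 and 1417 against 964, 983 and 1010.2, a log2 fold change of -0.65 ± 0.25 that was -0.39 without wild-type replicate 1. The wild-type values of Ndufa6 were spread widely, and those of Mt3 lay from 6989 upwards, well above every Kmt2a+/LSL value. Tgfb1i1, a focal adhesion adaptor, stood at 118, 241 and 184 against 78.2, 103 and 117, and its highest Kmt2a+/LSL value came within 1 count of its lowest wild-type value, that of wild-type replicate 1. Scrn1 and Cnpy2, an endoplasmic reticulum protein, had log2 fold changes of -0.55 ± 0.22 and -0.53 ± 0.20. Wipf3 overlaps Scrn1 on the opposite strand, and the strand setting of the counting is not stated, so reads of the pair cannot be told apart.

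Of the lower genes, 3 were features whose reads may be shared with near-identical copies. ENSMUSG00000082209, an identifier with no entry in the annotation used, stood at 2842, 1033 and 1705 in Kmt2a+/+ and at 0, 29.7 and 1.00 in Kmt2a+/LSL. The processed pseudogene Gm4202 stood at 667, 87.7 and 236 in Kmt2a+/+ and at 0, 0 and 46.1 in Kmt2a+/LSL, and the processed pseudogene Gm10146 had a log2 fold change of -2.16 ± 0.72. All 3 features were separated between genotypes, and because kallisto divides reads among similar transcripts, these levels are uncertain.

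**Figure D3:**
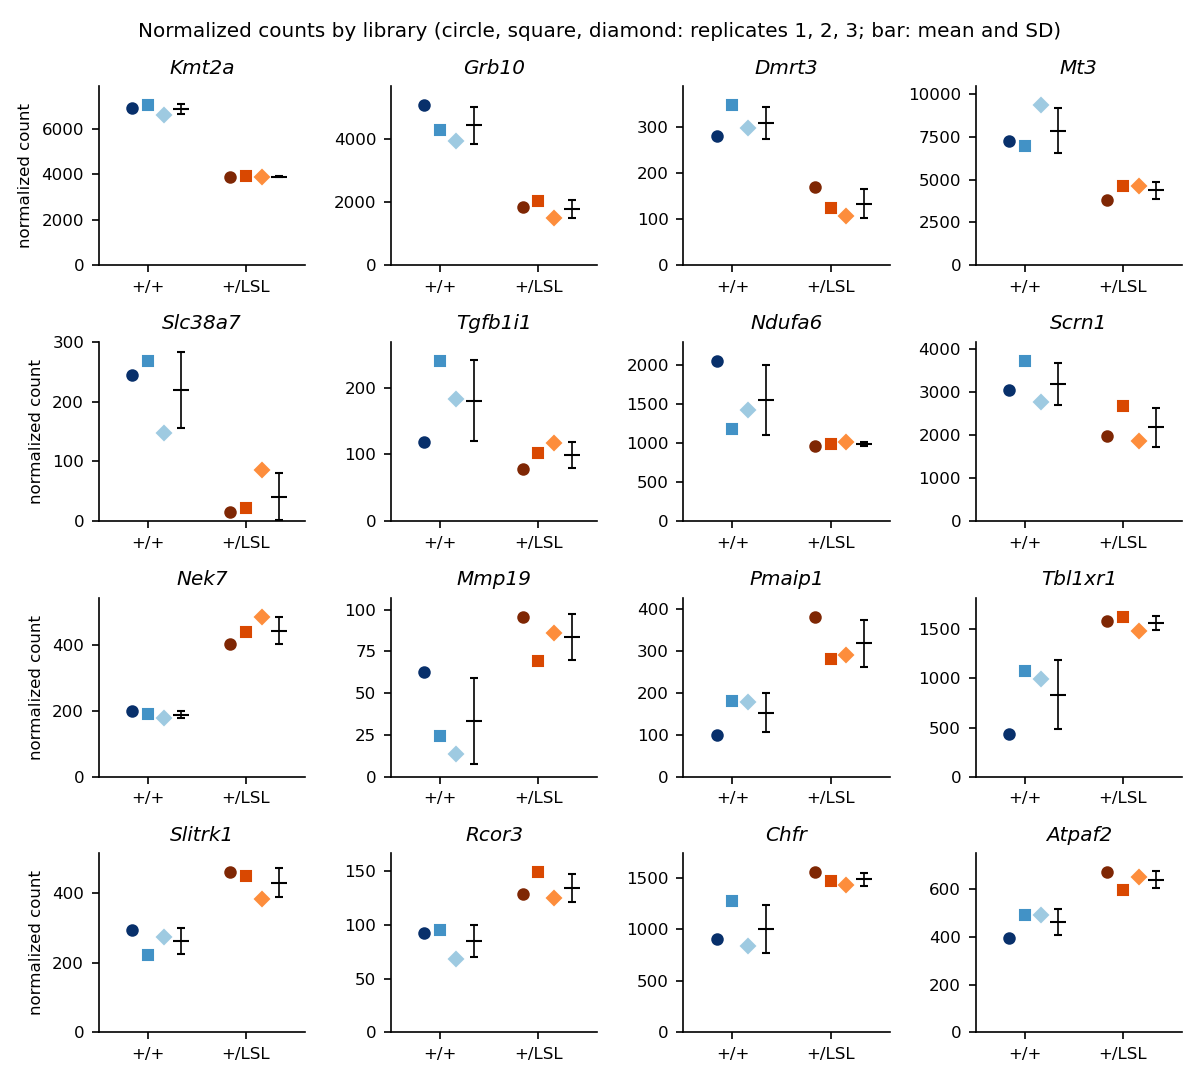
Normalized counts of 16 of the leading genes in each Kmt2a+/+ and Kmt2a+/LSL library, each on its own axis from 0, with the mean and SD (n = 3). The 8 genes of the upper rows are lower and the 8 of the lower rows higher in Kmt2a+/LSL, and in each panel the 3 values of one genotype lie on one side of the other 3.

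Among the higher genes, Nek7 (chr1:138482875-138620141), which acts in mitosis and in the NLRP3 inflammasome, stood at 201, 189 and 177 in Kmt2a+/+ and at 405, 442 and 487 in Kmt2a+/LSL, with log2 fold changes of 1.23 ± 0.22 and 1.28 ± 0.21. Its GC content of 39.9% is low, and the GC offset left 1.22 with all libraries and 0.91 without wild-type replicate 1. Tbl1xr1, a subunit of the NCoR and SMRT corepressors, stood at 437, 1072 and 999 against 1585, 1629 and 1481, with log2 fold changes of 0.90 ± 0.31 and 0.60 ± 0.13, and 0.37 with the offset and without wild-type replicate 1. Rcor3, a member of the CoREST family that partners the H3K4 demethylase LSD1, stood at 92.6, 95.2 and 68.1 against 128, 149 and 125, a log2 fold change of 0.65 ± 0.27. Nek7 had tight values in both groups, whereas wild-type replicate 1 was the lowest wild-type value for Tbl1xr1 by a wide margin. Chfr, a ubiquitin ligase that delays entry into mitosis under stress, had a log2 fold change of 0.56 ± 0.21.

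Slitrk1 (chr14:108908800-108914158), an adhesion protein of neurons that promotes synapse formation, stood at 293, 221 and 274 against 459, 449 and 382, a log2 fold change of 0.71 ± 0.22 that lay between 0.68 and 0.80 in the 4 fits. Pmaip1, the p53 target NOXA that promotes apoptosis, stood at 98.3, 180.1 and 179 against 382, 281 and 291, a log2 fold change of 1.06 ± 0.33 that was 0.50 with the offset and without wild-type replicate 1. Mmp19, a matrix metalloproteinase, stood at 62.7, 24.3 and 13.8 against 95.8, 69.0 and 86.2, and it lies opposite Tmem198b on the other strand. Slitrk1 kept its size in every fit, Pmaip1 did not, and Mmp19, with the lowest counts, had the widest error of the higher genes. Atpaf2, an assembly factor of the ATP synthase, stood at 397, 494 and 493 against 669.9, 598 and 652 and overlaps Gid4 on the opposite strand. Ralgapa1, Tiprl and Cyp39a1, which act on Ral GTPases, on PP2A phosphatases and on oxysterols, had log2 fold changes of 0.65, 0.51 and 0.46, and of 0.19, 0.25 and 0.23 with the GC offset and without wild-type replicate 1. Gabrg1, a GABA-A receptor subunit with a GC content of 34.7%, had 0.50 ± 0.20 with all libraries but -0.01 with the GC offset and without wild-type replicate 1, so its difference did not outlast that adjustment.

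The DESeq2 calls named genes of a different kind as well. Of the 7 made with all libraries, Kmt2a, Grb10, Dmrt3 and Nek7 are described above. The other 3, looked up after their values were seen, rested on 1 or 2 libraries. Brca2, which repairs DNA breaks, was listed at 0 in 5 libraries and at 148 in Kmt2a+/LSL replicate 1. Fbrs was listed at 0, 0 and 0 in Kmt2a+/+ and at 118, 168 and 0 in Kmt2a+/LSL, and ENSMUSG00000079733 had counts in Kmt2a+/+ replicate 1 only, at 241. An exact 0 for a gene that dividing cells use can be a failed estimate, and no fold is given for these genes. The 13 made without wild-type replicate 1 again held Kmt2a, Grb10, Dmrt3 and Nek7, with Tbl1xr1, Brca2 and Fbrs. Adgrl2, an adhesion receptor, stood at 221, 24.3 and 11.3 against 323, 430.4 and 93.2, and the histone gene Hist2h2aa2, which has near-identical copies, at 0, 368 and 365 against 165, 175 and 166. Gstt1, a glutathione transferase, stood at 321, 696 and 998 against 441, 398 and 470, with log2 fold changes of -0.62 ± 0.36 with all libraries and -0.95 ± 0.20 without that one. For Gstt1 and Hist2h2aa2 wild-type replicate 1 lay beyond the Kmt2a+/LSL values, on the far side from the other wild-type libraries, and for Adgrl2 it lay among them.

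Gene families and pathways were read over 76 lists, each described by its median log2 fold change and by its count of members whose groups did not overlap. Over all genes tested the median log2 fold change was -0.01 with all libraries and 0.00 without wild-type replicate 1, and non-overlap was 1.89% lower and 2.16% higher. With all libraries 67 of the 76 medians lay within 0.2 of 0. Leaving out wild-type replicate 1 turned the sign of 41 medians, and 28 kept one sign in all 4 fits. In 8 lists the median was at least 0.1 from 0 on the same side in every fit: dorsal telencephalon factors, midbrain and hindbrain factors, neural stem cell genes, interferon-stimulated genes, clustered protocadherins, non-clustered protocadherins with FAT cadherins, and lecticans with link proteins, all below 0, and ependymal and choroid plexus genes, above 0.

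**Figure D4:**
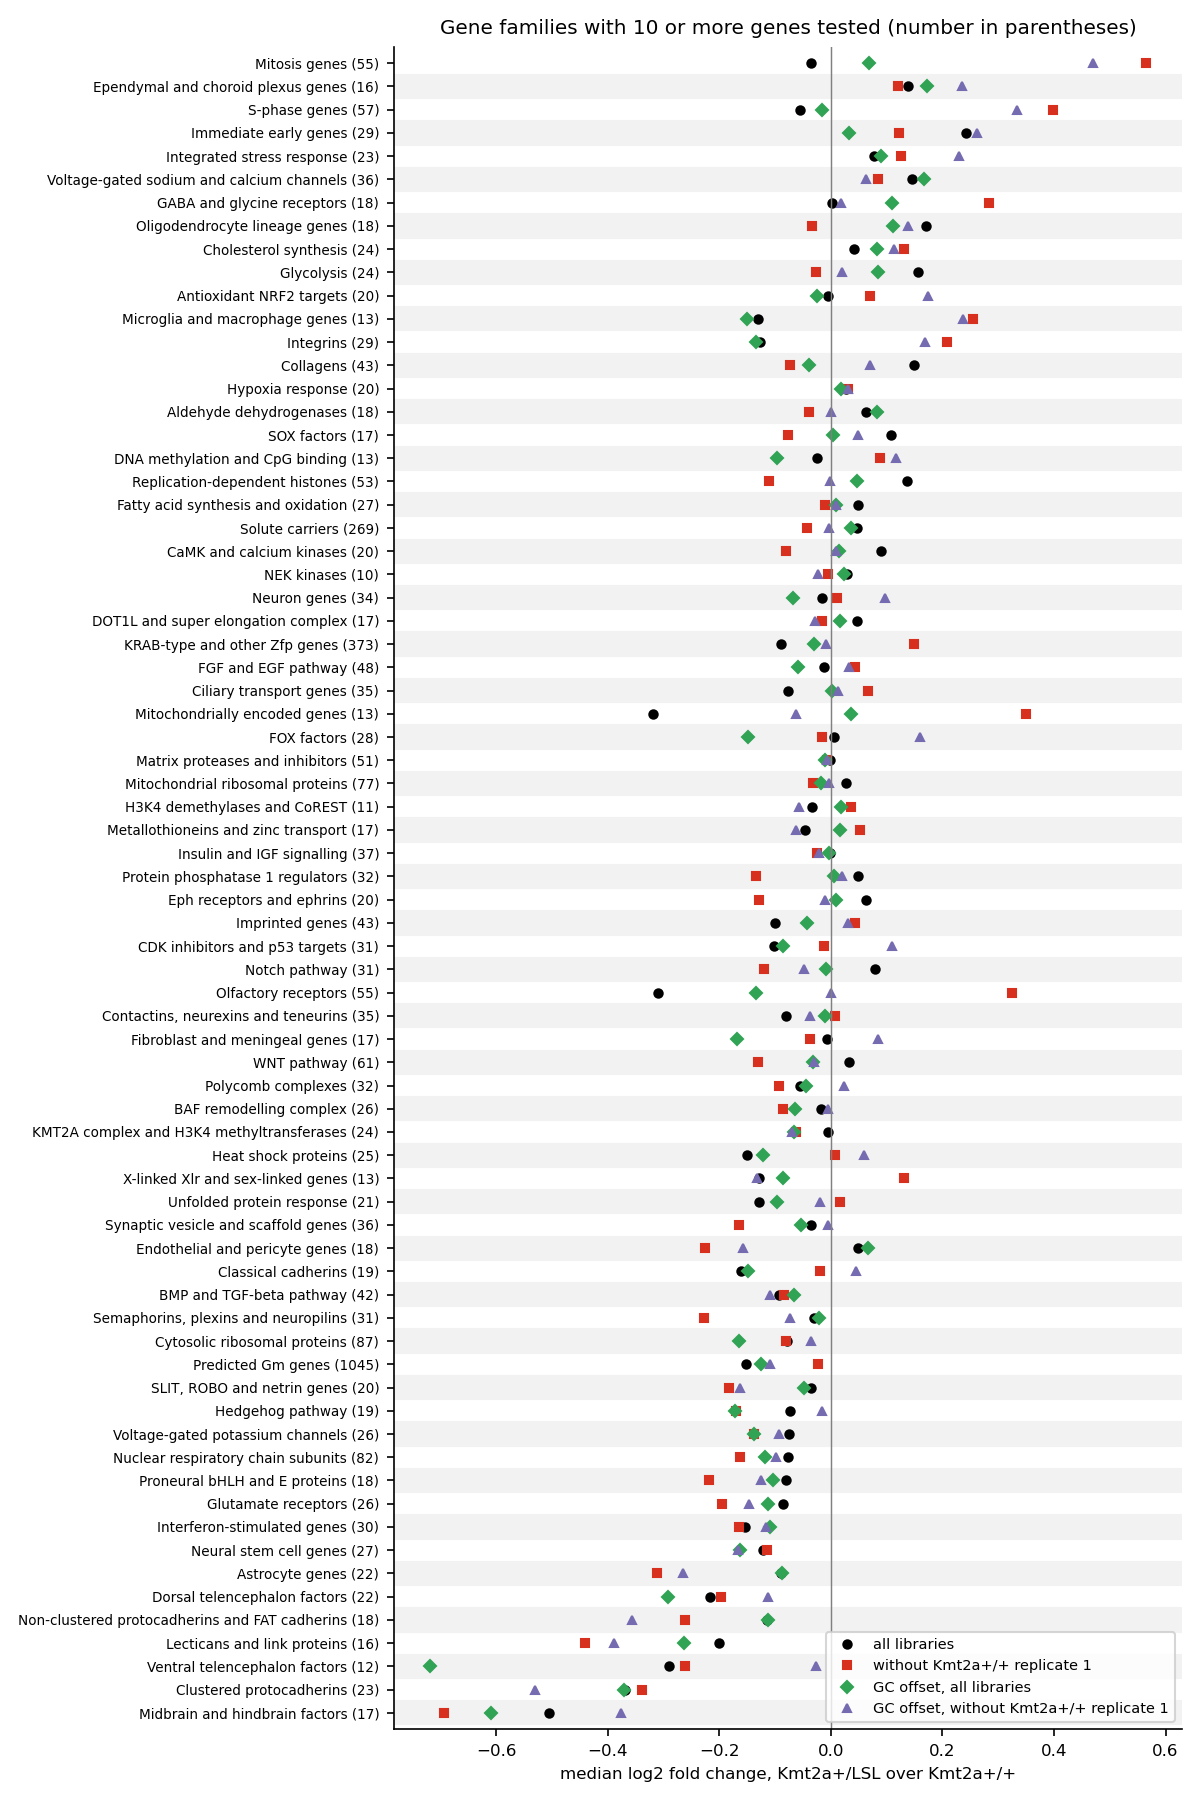
Median log2 fold change of Kmt2a+/LSL over Kmt2a+/+ for the 72 lists with 10 or more genes tested, in the 4 fits (1 symbol each), with the number of genes in parentheses. Most lists lie near 0 or have symbols on both sides of it, and clustered protocadherins and midbrain and hindbrain factors lie left of 0 in every fit.

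Clustered protocadherins, the adhesion proteins that give neurons their surface identity and are encoded in tandem arrays, had log2 fold changes below 0 across nearly the whole family in each fit. Of 23 genes tested, 21 were below 0 with all libraries and 23 without wild-type replicate 1, with and without the GC offset, and the medians were -0.37, -0.34, -0.37 and -0.53 in the 4 fits. The 3 Kmt2a+/LSL values lay below all 3 wild-type values in 4 genes (17.4%, against 1.89% of all genes) and above them in 0. At an unadjusted p under 0.05, 2 of the 23 were lower with all libraries (8.70%, against 0.757% of all genes) and 0 without wild-type replicate 1 (0%, against 2.19%). With the GC offset the count was 3 (against 1.33% of all genes), and with the offset and without wild-type replicate 1 it was 7 (30.4%, against 1.47%), so it depended on the fit more than the medians did. Pcdhb20 stood at 648, 552 and 455 in Kmt2a+/+ and at 346, 448 and 359 in Kmt2a+/LSL (log2 fold change -0.52 ± 0.22). Pcdhb6 stood at 104, 106 and 90.8 against 47.5, 86.3 and 68.2, and Pcdhb12 at 71.2, 53.2 and 51.9 against 35.2, 47.0 and 31.1. In these genes Kmt2a+/LSL replicate 2 came closest to wild type. The library medians of the family overlapped between genotypes, at -0.11, 0.41 and 0.08 in Kmt2a+/+ and -0.37, 0.23 and -0.24 in Kmt2a+/LSL as log2 deviations. Members share sequence and a locus, so they are not separate measurements.

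Among other surface proteins, non-clustered protocadherins and FAT cadherins had medians of -0.12, -0.26, -0.11 and -0.36 in the 4 fits over 18 genes. The library medians of this list overlapped, at -0.00, 0.31 and 0.24 in Kmt2a+/+ and -0.14, 0.17 and -0.03 in Kmt2a+/LSL as log2 deviations. Fat4, which signals planar polarity, stood at 2781, 2986 and 2948 in Kmt2a+/+ and at 2103, 2214 and 2390.3 in Kmt2a+/LSL (log2 fold change -0.38 ± 0.17). Pcdh15 stood at 45.6, 57.8 and 35.7 against 7.91, 27.8 and 27.1, a log2 fold change of -1.15 ± 0.49. Both groups of values were apart in these genes, which were the 2 of 18 without overlap (11.1%, against 1.89%), but Fat4 overlapped with the GC trend removed. Classical cadherins, contactins with neurexins and teneurins, Eph receptors, semaphorins, SLIT and ROBO genes and integrins had medians between -0.16 and 0.06 with all libraries. Integrins went from -0.13 to 0.21 without wild-type replicate 1. Slit2, a guidance cue, stood at 437, 537 and 434 against 346, 408 and 432, with the highest Kmt2a+/LSL value just under the lowest wild-type value.

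Among matrix genes the lecticans and link proteins, the proteoglycan scaffold of brain matrix, had medians of -0.20, -0.44, -0.26 and -0.39 in the 4 fits over 16 genes. Acan, which encodes the lectican aggrecan, was scarce at 18.5, 12.1 and 15.4 in Kmt2a+/+ and 3.52, 2.88 and 6.01 in Kmt2a+/LSL (log2 fold change -1.86 ± 0.53). It was the single member without overlap (6.25%, against 1.89%). The library medians of the list were -0.71, 0.45 and 0.49 in Kmt2a+/+ and 0.01, 0.13 and 0.02 in Kmt2a+/LSL as log2 deviations, so wild-type replicate 1 was the lowest library and the other wild-type libraries were the highest. Collagens (0.15 and, without wild-type replicate 1, -0.07), laminins (0.03 and -0.11) and matrix proteases with their inhibitors (0.00 and -0.01) had medians near 0.

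The midbrain and hindbrain, dorsal telencephalon and ventral telencephalon lists had medians below 0 in the 4 fits. Midbrain and hindbrain factors, which a hippocampal culture should hold at low levels, had medians of -0.51, -0.69, -0.61 and -0.38 in the 4 fits over 17 genes, the lowest of the lists with 10 or more genes when all libraries were used. Irx2 stood at 72.6, 25.2 and 22.7 in Kmt2a+/+ and at 8.79, 9.59 and 11.0 in Kmt2a+/LSL, En1 at 27.1, 29.9 and 62.4 against 15.8, 18.2 and 24.1, and En2 at 54.1, 55.0 and 68.9 against 34.3, 43.1 and 48.1. These 3 of 17 were without overlap (17.6%, against 1.89%), at counts so low that a few reads matter. As log2 deviations, the library medians of the list were -0.55, 0.19 and 0.47 in Kmt2a+/+ and -0.21, -0.08 and 0.11 in Kmt2a+/LSL. They overlapped between genotypes, as did the summed counts, at 477, 546 and 761 against 483, 556 and 621. Dorsal telencephalon factors had medians of -0.22, -0.20, -0.29 and -0.11 over 22 genes, with 16 below 0. Beside Dmrt3, Pax6, which drives cortical progenitor identity, stood at 1259, 1039 and 1011 against 831, 927 and 883, a log2 fold change of -0.33 ± 0.18 that was -0.21 without wild-type replicate 1. Emx2, needed to form the hippocampus and named for that role, stood at 1023, 1148 and 1071 against 1017, 1033 and 1105 with overlapping groups. In the ventral list, whose medians were -0.29, -0.26, -0.72 and -0.03, Sp9 stood at 54.1, 54.1 and 69.7 against 31.6, 17.3 and 36.1, a log2 fold change of -1.06 ± 0.39, without overlap.

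HOX genes, the classic KMT2A targets, were hardly expressed: 7 of 18 listed genes were tested, none was without overlap, and their median went from -0.52 to 0.83 without wild-type replicate 1. The MEIS cofactors were more abundant. Meis2 stood at 1674, 1518 and 1399 in Kmt2a+/+ and at 1269, 1149 and 997 in Kmt2a+/LSL (log2 fold change -0.43 ± 0.21). Meis1 stood at 906, 832 and 771 against 724, 728 and 650.5, a log2 fold change of -0.26 ± 0.19. Both were lower in every Kmt2a+/LSL culture than in any wild-type culture, the 2 such genes among 9 MEIS and PBX factors (22.2%, against 1.89% of all genes). However, Meis1 overlapped with the GC trend removed, and the medians of those 9 were 0.00, -0.17, -0.10 and -0.00 in the 4 fits. Without wild-type replicate 1, 4 of the 9 were lower without overlap (44.4%, against 14.8%), and with the GC trend removed as well 2 were (22.2%, against 10.8%). SOX, FOX and ZIC factors had medians between -0.15 and 0.11 with all libraries.

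Apart from Kmt2a itself, 0 of the 23 genes tested for KMT2A complex members and H3K4 methyltransferases were without overlap. Over all genes the shares were 1.89% lower and 2.16% higher. With the GC trend removed 2 of the 23 were without overlap and lower (8.70%, against 3.35% of all genes). They were Kmt2d and the coactivator Ncoa6, the latter named after its values were seen. The medians of the list with Kmt2a were -0.01, -0.06, -0.07 and -0.07 in the 4 fits. Without wild-type replicate 1, 7 of its 24 genes were lower without overlap (29.2%, against 14.8% of all genes) and 2 higher (8.33%, against 14.3%). With the GC trend removed as well, 4 were lower (16.7%, against 10.8%) and 2 higher (8.33%, against 10.6%). Kmt2c stood at 8647, 7638 and 6417 in Kmt2a+/+ and at 6062, 7168 and 6548 in Kmt2a+/LSL, and Wdr5 at 789, 921 and 1117 against 1110.4, 961 and 936, with overlapping groups. Kmt2d, another H3K4 methyltransferase, stood at 1063, 3434 and 3913 against 2655, 2612 and 3126, and Men1, which encodes menin, at 338, 893 and 1057 against 831, 758 and 881. For the latter pair wild-type replicate 1 lay under every Kmt2a+/LSL value. The log2 fold changes were -0.39 and -0.24 without it, and -0.15 and 0.00 with the GC offset as well. Polycomb, BAF, super elongation, CoREST and CpG-binding lists had medians between -0.05 and 0.05 with all libraries, with Bcor and Rcor3 as their leading members. Mbd2, which binds methylated CpG, stood at 2863, 1201 and 1197 against 1117, 1134 and 1051, a difference carried by wild-type replicate 1. Replication-dependent histones, many of them GC-rich, went from a median of 0.14 to -0.11 without that library.

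Genes of cell division moved with single libraries. Mitosis genes had medians of -0.04, 0.57, 0.07 and 0.47 in the 4 fits, and S-phase genes -0.06, 0.40, -0.02 and 0.33. With all libraries 28 of 55 mitosis genes were below 0, whereas without wild-type replicate 1 all 55 were above it and 14 were higher at an unadjusted p under 0.05 (25.5%, against 3.81% of all genes). With the GC offset as well, 1 was (1.82%, against 2.04%). The library medians of the mitosis list were 0.89, -1.21 and 0.00 in Kmt2a+/+ and 0.54, -0.12 and -0.12 in Kmt2a+/LSL as log2 deviations. Wild-type replicate 1 was the highest and wild-type replicate 2 the lowest of all 6 libraries, with every Kmt2a+/LSL culture between them, and no mitosis gene was without overlap. Pcna, the replication clamp, stood at 6839, 1773 and 3331 against 5550.1, 3032 and 2906, which shows the same order of the wild-type libraries. The list medians were not recomputed without the other wild-type libraries. CDK inhibitors and p53 targets had medians of -0.10, -0.01, -0.09 and 0.11. Of 31 genes, Pmaip1 was higher (3.23%, against 2.16% of all genes) and Sesn1 lower (3.23%, against 1.89%) without overlap. Sesn1 stood at 2554, 1748 and 1746 in Kmt2a+/+ and at 1637, 1702 and 1720 in Kmt2a+/LSL. Its log2 fold change was -0.26 with all libraries and -0.04 without wild-type replicate 1.

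**Figure D5:**
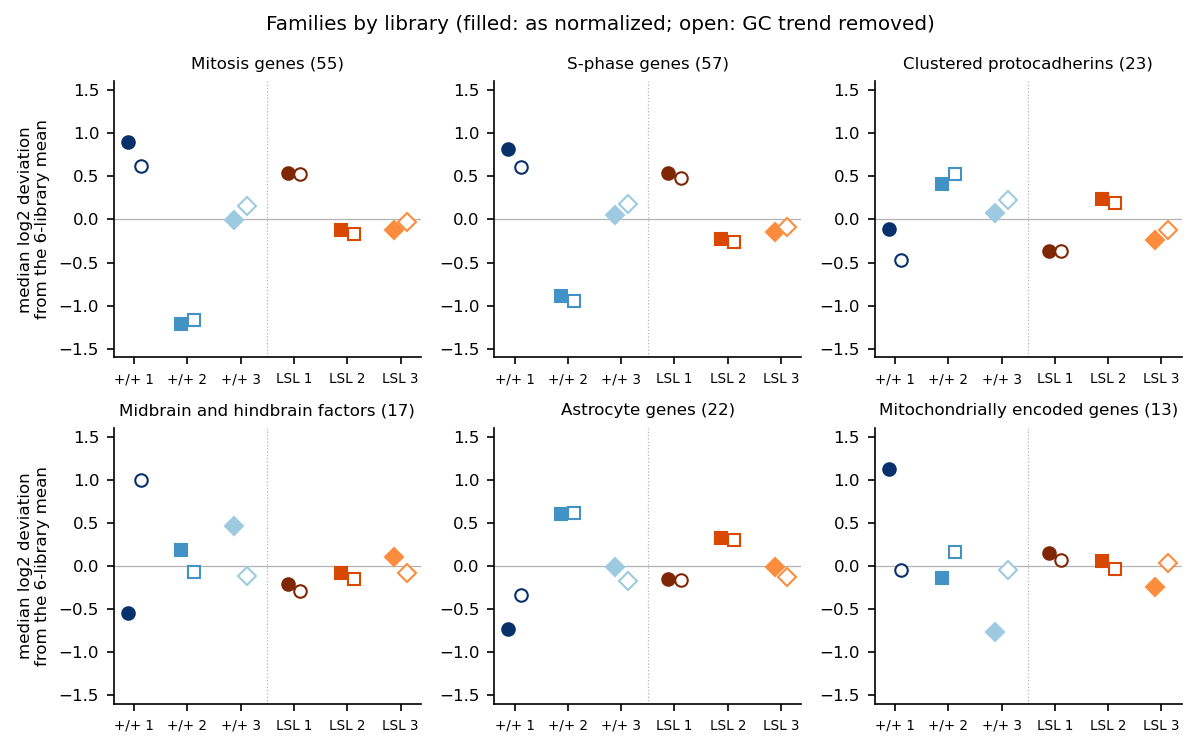
Median log2 deviation from the mean of the 6 libraries for 6 gene lists, by library, as normalized (filled) and with each library's GC trend removed (open). For mitosis and S-phase genes the 3 Kmt2a+/+ libraries span the whole range, with replicate 1 of that genotype at 0.89 and replicate 2 at -1.21 for mitosis, and for mitochondrially encoded genes the spread of the Kmt2a+/+ libraries shrinks once the GC trend is removed.

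Neural stem cell genes had medians of -0.12, -0.11, -0.16 and -0.17 in the 4 fits, with 18 of 27 genes below 0 and 2 lower without overlap (7.41%, against 1.89%), Pax6 among them. Astrocyte genes had medians of -0.09, -0.31, -0.09 and -0.26, with no member without overlap, and wild-type replicate 1 was the lowest library at -0.73 and wild-type replicate 2 the highest at 0.60. Summed over 5 defining markers, astrocyte transcripts ran from 7917 in Kmt2a+/+ replicate 1 to 35116 in Kmt2a+/+ replicate 2, with the Kmt2a+/LSL cultures at 22179, 26450 and 23667. Neural stem cell markers, 9 genes, summed to 201594 to 410176 normalized counts, and neuron markers, 5 genes, to 827 to 1133. Sums over different gene sets cannot settle the identity of the cells. Oligodendrocyte lineage markers summed to 11275 in wild-type replicate 1 and to 21915 to 28087 in the other 5 libraries. Microglia markers summed to 1.62 to 41.3, with no counts for Aif1 and C1qa, endothelium and pericyte markers to 38.5 to 231, with none for Cldn5 and Cdh5, and fibroblast markers to 18.5 to 104. Ependymal and choroid plexus genes had medians of 0.14, 0.12, 0.17 and 0.24, and their 4 defining markers summed to 105 in wild-type replicate 1, 492 and 818 in the other wild-type libraries, and 415 to 673 in Kmt2a+/LSL.

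Of 82 nuclear genes for respiratory chain subunits, 8 were lower without overlap (9.76%, against 1.89%) and 0 were higher, and the medians were -0.08, -0.16, -0.12 and -0.10 in the 4 fits. At an unadjusted p under 0.05 the lower members were 1, 2, 2 and 1 in the 4 fits, or 1.22%, 2.44%, 2.44% and 1.22% against 0.757%, 2.19%, 1.33% and 1.47% of all genes, so this share was near the background. Ndufa1, a subunit of complex I, stood at 786, 767 and 953 in Kmt2a+/+ and at 539.8, 565 and 585 in Kmt2a+/LSL (log2 fold change -0.57 ± 0.32). Ndufs6, of the same complex, stood at 1127, 805 and 1084 against 774, 679 and 762, a log2 fold change of -0.45 ± 0.35. Atp5h, of the ATP synthase, stood at 6870.3, 2993 and 3304 against 2937, 2972 and 2958, where the other wild-type libraries lay only just above Kmt2a+/LSL. With Ndufa6, the others of the 8 were Cox4i1, Atp5j2, Atp5l and Uqcrh, whose log2 fold changes lay between -0.41 and -0.33 with all libraries. Without wild-type replicate 1 the log2 fold changes of these genes other than Ndufa6 lay between -0.31 and -0.16. Atp5j2 and Ndufs6 overlapped with the GC trend removed. With the GC trend removed and without wild-type replicate 1, 16 of the 82 were lower (19.5%, against 10.8%) and 4 higher (4.88%, against 10.6%). The 13 mitochondrially encoded genes had medians of -0.32, 0.35, 0.04 and -0.06, and their direction turned with the library and with the offset. Cytosolic ribosomal proteins had medians of -0.08, -0.08, -0.16 and -0.03 with 2 members lower (2.30%, against 1.89%) and 3 higher (3.45%, against 2.16%) without overlap, and many have processed copies. Mitochondrial ribosomal proteins had medians within 0.03 of 0, with 4 of 77 lower without overlap (5.19%, against 1.89%) and 1 higher (1.30%, against 2.16%). With the GC trend removed 2 were lower (2.60%, against 3.35%) and 3 higher (3.90%, against 3.52%), and without wild-type replicate 1 as well 7 were lower (9.09%, against 10.8%) and 18 higher (23.4%, against 10.6%).

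Of the metabolic lists, cholesterol synthesis (0.04, 0.13, 0.08 and 0.11) was above 0 in each fit, and Tm7sf2, a sterol reductase, stood at 188, 735 and 978 against 1160.5, 1061 and 1046, with wild-type replicate 1 far below the rest. Glycolysis, hypoxia and fatty acid lists had medians between -0.03 and 0.16 in the first pair of fits. Among stress lists, the integrated stress response had medians of 0.08, 0.13, 0.09 and 0.23, with 14 of 23 genes above 0 with all libraries and 1 higher without overlap (4.35%, against 2.16%), and interferon-stimulated genes -0.15, -0.16, -0.11 and -0.12. Of 25 heat shock proteins 2 were lower (8.00%, against 1.89%) and 3 higher (12.0%, against 2.16%) without overlap. Hspa2, a heat shock protein 70 paralog, stood at 103, 11.2 and 21.9 in Kmt2a+/+ and was listed at 0 in all 3 Kmt2a+/LSL cultures. Such a 0 can again be a failed estimate, so no fold is given. Hspa8, the constitutive form, stood at 83355, 49494 and 50109 against 48037, 48683 and 43013, so the other wild-type libraries were close to Kmt2a+/LSL. Among the higher ones, the small heat shock protein gene Hspb8 stood at 79.8, 112 and 109 against 254, 125 and 148, a log2 fold change of 0.81 ± 0.34. Hsph1, a chaperone of the HSP110 family, stood at 0, 345 and 109 against 432, 514 and 373, a log2 fold change of 1.53 ± 1.31 that was 0.97 without wild-type replicate 1, the library in which it was listed at 0. Unfolded protein response, heat shock, immediate early, metallothionein and antioxidant lists had medians between -0.15 and 0.24 with all libraries.

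Insulin and IGF signalling, to which Grb10 belongs, had medians of -0.00, -0.02, 0.00 and -0.02 in the 4 fits. Of 37 genes, Grb10 was the single member lower without overlap (2.70%, against 1.89% of all genes). Grb14, its relative, was the single member higher (2.70%, against 2.16%), at 111, 98.9 and 107 in Kmt2a+/+ and 134, 122 and 166 in Kmt2a+/LSL. Grb14 overlapped with the GC trend removed. Its log2 fold change was 0.41 with all libraries and 0.25 with the GC offset and without wild-type replicate 1. The medians of the Notch list were 0.08, -0.12, -0.01 and -0.05 in the 4 fits, and those of the WNT list 0.03, -0.13, -0.03 and -0.03, so both turned from above to below 0 without wild-type replicate 1. Without that library 8 of 31 Notch genes were lower without overlap (25.8%, against 14.8% of all genes) and 0 higher, and 15 of 61 WNT genes were lower (24.6%) and 1 higher (1.64%, against 14.3%). With the GC trend removed as well, 4 Notch genes (12.9%, against 10.8%) and 10 WNT genes (16.4%) were lower, and 0 and 2 (3.28%, against 10.6%) were higher. Hedgehog genes had medians of -0.07, -0.17, -0.17 and -0.02, BMP and TGF-beta genes -0.09, -0.08, -0.07 and -0.11, and FGF and EGF genes -0.01, 0.04, -0.06 and 0.03. With all libraries the secreted antagonists Sfrp2 and Sfrp1 were the 2 of 61 WNT genes lower without overlap (3.28%, against 1.89% of all genes), at 225, 143 and 191 against 108, 133 and 117 and at 625, 439 and 446 against 367, 389 and 369.8. Acvr1, a BMP type I receptor, stood at 766, 836 and 762 against 644, 685 and 679.5, and Numb, a Notch inhibitor, at 697, 662 and 611 against 525, 606 and 568. The groups of these genes were apart but none had an unadjusted p under 0.05 with all libraries. Sfrp2 overlapped with the GC trend removed. Its log2 fold change was -0.64 with all libraries, -1.31 with the GC offset, and -0.23 with the offset and without wild-type replicate 1. Imprinted genes had medians of -0.10, 0.04, -0.04 and 0.03, with Grb10 and Ndn, at 2192, 2101 and 2381 against 1662, 1706 and 1672, the 2 of 43 lower without overlap (4.65%, against 1.89%). Ndn overlapped with the GC trend removed, where the list had 1 gene lower (2.33%, against 3.35% of all genes) and 1 higher (2.33%, against 3.52%).

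Channel, receptor and synapse lists had medians between -0.09 and 0.14 with all libraries, and glutamate receptors (-0.09, -0.20, -0.11 and -0.15) and voltage-gated potassium channels (-0.07, -0.14, -0.14 and -0.09) were below 0 in each fit. Of the large families, 373 Zfp genes had a median of -0.09 with all libraries, 0.15 without wild-type replicate 1, and -0.03 and -0.01 with the GC offset. The 269 solute carriers, led by Slc38a7, had medians of 0.05, -0.04, 0.04 and -0.00. The 1045 predicted Gm genes, many of them pseudogenes, had 36 members lower (3.44%) and 38 higher (3.64%) without overlap, against 1.89% and 2.16% of all genes.

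Sex-linked transcripts differed inside the wild-type group. The 4 Y-linked genes summed to 6523, 3808 and 21.1 normalized counts in Kmt2a+/+ replicates 1 to 3 and to 4242, 4857 and 3692 in Kmt2a+/LSL, so wild-type replicate 3 was nearly without them and the other 5 libraries held them. Their part in the differences above was not tested beyond leaving that library out. By chromosome, the medians lay between -0.08 and 0.06 on the autosomes and the X with all libraries. Without wild-type replicate 1 they lay between -0.10 and 0.09 on the autosomes and at 0.16 on the X, and with the GC offset between -0.04 and 0.02 with all libraries and between -0.02 and 0.02 without that one. By CpG count in the promoter, taken from 250 bases before to 50 after the start in the RefSeq promoters of GRCm38.p6, the medians of the 5 groups lay between -0.04 and 0.01 with all libraries and between -0.02 and 0.01 without wild-type replicate 1. Genes with CpG-rich promoters, at 34 to 67 CpGs, had medians of -0.04, 0.01, -0.03 and 0.00 in the 4 fits.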

How the data were processed

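Of 12 labelled mNPC libraries, 9 were fitted together: both compared genotypes and, for the spread, nes-cre+/-Kmt2a+/LSL. The authors pseudoaligned the reads to the mm10 (GRCm38) transcriptome with kallisto 0.48.0, imported them with tximport and mapped transcripts to genes with biomaRt, and the submitters' processing notes also name DESeq2 1.42.0. The file deposited by the authors holds whole-number estimated counts without normalization for 18911 genes, which entered the fits unchanged although the tests had been planned for plain counts. The strand setting is not given in the sources used here.

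A gene was kept when its fitted libraries summed to more than 10 counts and at least 2 of them had any. TMM normalization and the two-sided quasi-likelihood F-test of edgeR 4.0.16 (R 4.3.3) were used, with a model of genotype alone and Benjamini-Hochberg adjustment at 0.05. The SE of a log2 fold change was derived from this test, as its absolute value divided by the square root of the F statistic. The fit was repeated without Kmt2a+/+ replicate 1, on 8 libraries. Normalized counts are counts divided by TMM-scaled library sizes, and a prior count of 2 went into each library's log2 value, not into the fitted fold changes. The GC offset was a loess curve (span 0.5) of each library's deviation on transcript GC content, from genes with a mean of at least 50. The median log2 fold change over all genes stayed within 0.02 of 0 in the 4 fits. Library totals lay between 18280008 and 28596919, where 3 counts correspond to 2.43 to 4.27 normalized counts, and such floors cover counting error only. For Kmt2a, an exact permutation test (two-sided) was run over 3 against 3 libraries. Gene positions, GC content and overlaps come from the GENCODE annotation of GRCm38, which with the RefSeq table gave a symbol for 18735 genes. The steps were tested on simulated data. Gene lists were described by counts and medians, with no set test.

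The members and the 76 lists were chosen with earlier results of these data known. Named genes are Kmt2a, the 12 largest differences in each direction with an unadjusted p under 0.05 with and without Kmt2a+/+ replicate 1, no overlap and a mean of at least 50, up to 4 members of each list without overlap and with a mean of at least 20, and the members a list is named for. Others are said in the text to be named for their role or after their values were seen, as are the genes called by DESeq2, Mki67, Hes5, Pcna, Kmt2c, Kmt2d, Wdr5 and Men1. Some genes that these rules name are not reported here. The alternatives covered size factors from DESeq2, its Wald test, its z-scores with an empirical null fitted to the central 75% of z-scores (a stand-in for the paper's fdrtool step), limma-voom (limma 3.58.1) with sample quality weights, other filters, the genotypes in the fit, the replicate block, the GC offset and each library left out. The GC offset together with leaving out Kmt2a+/+ replicate 1 was chosen after seeing the data.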

Additional observations from a re-analysis of the deposited data

How the results depend on the processing

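The count of genes at an adjusted p under 0.05 was 0 with each library left out in turn (0 to 0), at both sets of libraries. With all libraries the DESeq2 Wald test gave 7 and DESeq2 z-scores with an empirical null 47, and without Kmt2a+/+ replicate 1 they gave 13 and 4, while a fit of all 4 genotypes without that library gave 2, Kmt2a and Grb10. The cause was not tested. Counts at an unadjusted p under 0.05 ran from 88 to 1031 with all libraries and from 432 to 1660 without Kmt2a+/+ replicate 1, and single libraries decided them: 191 became 991 without Kmt2a+/+ replicate 1, 361 without replicate 2 and 580 without replicate 3. Kmt2a had a log2 fold change between -0.85 and -0.76 over the fits with and without Kmt2a+/+ replicate 1. It passed in DESeq2, at -0.84 with the Wald test and -0.84 with the empirical null, and, without Kmt2a+/+ replicate 1, also in edgeR's fit of all 4 genotypes (adjusted p = 0.0437), with adjusted p from 1.41e-21 to 1 over its alternatives.

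Of 1276 values of the 115 named genes under alternatives, 28 in 9 genes changed sign. With 1 library left out in turn, Mki67 ran from -0.87 to 0.62 and Pcna from -0.42 to 0.59, both above 0 without Kmt2a+/+ replicate 1, and Hes5 from -0.58 to 0.89, Kmt2d from -0.39 to 0.31, Men1 from -0.24 to 0.42, Wdr5 from -0.017 to 0.23 and Emx2 from -0.076 to 0.0068. With the GC offset and without Kmt2a+/+ replicate 1 those that turned were Gabrg1 (-0.0082), Syn1 (0.17), Mki67 (0.50), Pcna (0.25) and Wdr5 (-0.0020). With limma-voom Mki67 was 0.82, Pcna 0.67 and Men1 -0.17, with the GC offset Pcna was 0.14, Hes5 0.18 and Men1 -0.079, and with the replicate block Pcna was 0.060, Hes5 0.66 and Kmt2d 0.17. Of 455 list medians under alternatives, 29 moved by more than the spread between replicates, 11 of them without Kmt2a+/+ replicate 1, 10 with the GC offset as well, and 0 with DESeq2 size factors.

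Replicate numbers in the labels were tested as a pairing. Deviations of same-numbered Kmt2a+/+ and Kmt2a+/LSL libraries correlated between 0.08 and 0.39, and over 9 libraries between -0.13 and 0.59. In 2 of 3 Kmt2a+/+ libraries the closest Kmt2a+/LSL library had the same number. Since not every pair was above 0.1, the numbers were not taken to pair the libraries, and the labels do not say whether same-numbered cultures share a litter or day. With the number as a replicate block the adjusted count was 0 in both sets of libraries, the unadjusted count was 156 (97 lower) with all libraries and 685 (244 lower) without Kmt2a+/+ replicate 1, and Kmt2a was at -0.82. Groups of 3 limit the exact permutation test to p = 0.1.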
